A study of Mus musculus with 13 samples.

Results

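The protein-coding neighbours of *Nod2* on mouse chromosome 8 were examined in liver RNA from WT and *Nod2*-/- mice. A gene belonged to this neighbourhood when it started within 10 Mb of *Nod2*, between 78647315 and 98688474 on GRCm38, and when it had 10 or more counts in 6 or more of the 13 libraries. Here the start of a gene is its lower coordinate, whichever its strand, except for promoters. Of 189 protein-coding genes in the window, 19 were left out by name, namely *Nod2* itself, a few single genes and the carboxylesterase, matrix metalloproteinase and chemokine families. Of the remaining 170 candidates, 50 were below the count minimum, 11 of them with no count in any mouse, and 120 genes were kept out of 53465 genes in the whole table. The members were thus selected on position and on count level in these same libraries. Apart from the genes left out by name, the rule did not use the difference between the genotypes directly. Still, 6 members were below the minimum in at least 1 WT mouse and met it in 6 or more *Nod2*-/- mice. Their differences are in part built into the count rule. The members nearest the minimum were *Asf1b* and *Gm10643*, each with 10 or more counts in 7 libraries, and the nearest gene below it was *Gnao1*, with 10 or more counts in 5 libraries.

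*Nod2* encodes an intracellular receptor that senses fragments of bacterial peptidoglycan and activates NF-κB and MAP kinase signalling, and it is best known from myeloid cells and the intestine. Its chromosomal neighbours are not a pathway but a mixed set that includes the NF-κB regulator *Cyld*, the endoplasmic reticulum stress gene *Herpud1*, the chaperone *Calr* and several mitochondrial enzymes. When a gene deletion made in cells of 1 strain is bred onto another, DNA that flanks the deletion can travel with it, which is why expression close to a deleted gene is of interest in any knockout.

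The study compared liver transcripts between the genotypes in a model of liver cancer that combines a carcinogen with an obesity-inducing diet. Both groups were male mice of the inbred strain BALB/c that received the carcinogen DMBA as pups and then a high-fat diet, for 30 weeks by the sample labels, which also give 30 weeks as the age and cancer as the disease state (the study's methods put the diet slightly longer). The groups differed in genotype, with 6 WT and 7 *Nod2*-/- mice, 1 library per mouse and no pooling. The mice were not littermates, and neither the strain in which the deletion was made nor the tumor content of each liver sample is given in the sources used here, so that an effect of losing *Nod2* and an effect of flanking DNA cannot be told apart.

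The deposited values were read counts per gene from strand-specific libraries of polyadenylated RNA. Depth was similar in both groups, with 14886273 to 20579984 counts per WT mouse (median 16964779) and 13824780 to 19391431 per *Nod2*-/- mouse (median 15618467). The tissue label was checked against 9 hepatocyte markers, which summed to 1480000 or more normalized counts in each mouse, with *Alb* contributing most. Normalized counts put every library on the mean effective library size (TMM). Log2 fold changes are *Nod2*-/- against WT and are given with their standard error (SE). Adjusted p-values come from edgeR's quasi-likelihood test, corrected after Benjamini and Hochberg over all 13545 genes tested.

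*Nod2* (ENSMUSG00000055994.15, chromosome 8, 88647315 to 88688474) was close to undetected in both genotypes. WT replicates 1 to 6 had 4, 1, 3, 2, 0 and 3 counts, and *Nod2*-/- replicates 1 to 7 had 2, 2, 6, 1, 5, 1 and 4 counts. In normalized counts this was 2.09 ± 1.41 (SD, n = 6) against 2.96 ± 1.92 (SD, n = 7), and the groups overlapped (two-sided exact permutation test, p = 0.403). Which exons were deleted is not given in the sources used here and reads outside them would still be counted, so this transcript did not check the genotype labels.

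Most neighbours of *Nod2* had similar expression in the 2 genotypes. Of the 120 members, 119 passed edgeR's expression filter and were tested, and at 5% FDR 1 was higher (*Cpne2*) and 1 was lower (*Herpud1*) in *Nod2*-/- mice. This was 1.68% of the tested members, close to the 1.16% of all 13545 genes that passed the same threshold (0.65% higher and 0.509% lower). At an unadjusted p under 0.05, 16 members were higher and 12 lower, together 23.5% against a background of 23.1% (12.9% higher and 10.2% lower). The normalized counts of the 2 groups did not overlap for 3 members (2.52%, background 1.44%), namely *Cpne2* and *Orc6*, higher in each *Nod2*-/- mouse, and *Usp38*, lower in each.

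The sizes of the differences were also near those of the whole table. Log2 fold changes of the members ran from -0.66 (*Gcdh*) to 1.17 (*Junb*), 69 were above 0 and 50 below, and their median was 0.07 (0.02 over all genes tested). The median absolute log2 fold change was 0.17 for members and 0.18 for all genes, and 4 members (3.36%) reached an absolute log2 fold change of 1, against 4.33% of all genes. The 4 include *Snx20* and *Lyl1*, whose differences are in part built into the count rule. The 95% interval of the fold change lay within 2-fold in either direction for 104 of the 119 members and within 1.5-fold for 77, so for most neighbours larger differences were outside what these 13 mice allowed. Of the 120 members, 109 had 10 or more counts in every mouse, and the 2 members past the threshold were among these 109 (1.83%, against 1.11% of all genes held to the same minimum). The other 11 include *Asf1b*, *Il15*, *Inpp4b*, *Lyl1* and *Snx20*, which reached the minimum in more *Nod2*-/- than WT mice, so their difference is in part built into the count rule.

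How many members passed depended on the mice and on the tool. Leaving out WT replicate 3 raised the count to 6 higher and 6 lower members while raising the background to 8.49%, and leaving out any 1 of WT replicates 1, 2, 4 and 5 or *Nod2*-/- replicates 4, 6 and 7 brought it to 0 by edgeR, with a background of 0.3% to 0.601%. In these 7 fits between 21 and 26 members were still at an unadjusted p under 0.05 (background 17.3% to 21.1%). Without both WT replicate 3 and *Nod2*-/- replicate 7, a pair chosen after the data were seen, 3 members were higher and 3 lower (background 4.23%). DESeq2 gave 5 higher and 6 lower members of 120, with a background of 7.26% of the 15892 genes it tested. Backgrounds by DESeq2 given below are over the same 15892 genes. With limma's voomWithQualityWeights 5 members were higher and 3 lower of 119, with a background of 6.22%. The genes left out by name were not a neutral selection: 13 of the 19 were tested, 1 was higher and 1 lower at 5% FDR, and their median absolute log2 fold change was 1.09. With them the window held 4 genes past the threshold of 132 tested (3.03%).

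**Figure D1:**
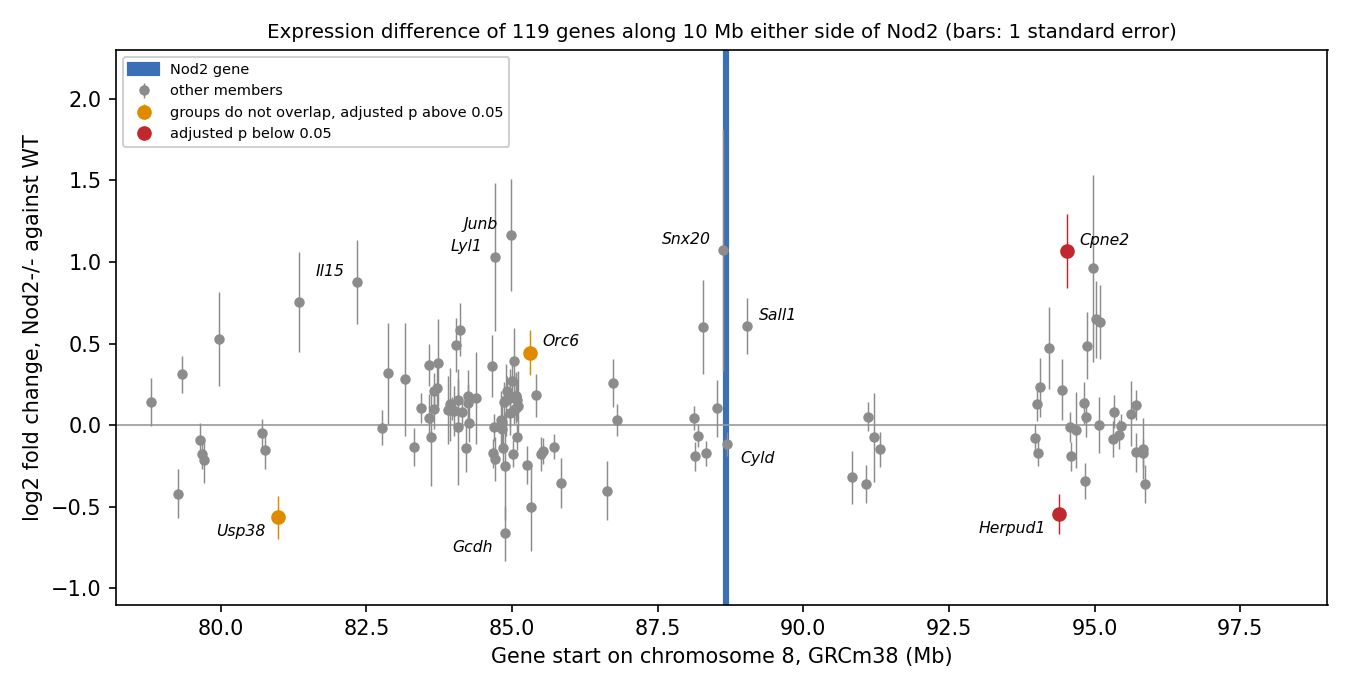
Log2 fold change (*Nod2*-/-, n = 7, against WT, n = 6) of the 119 tested members by gene start on chromosome 8 in Mb of GRCm38, with bars of 1 standard error, the *Nod2* gene as a vertical band, members past 5% FDR in red and members whose groups did not overlap but that missed the threshold in orange. The 2 red genes, *Herpud1* and *Cpne2*, start 5.70 and 5.84 Mb from *Nod2*, and the members beside *Nod2* are spread about 0.

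The 2 members past 5% FDR by edgeR were in the band farthest from *Nod2*, and no other measure given here rose steadily toward *Nod2*. Distance was taken from the gene start to the nearer end of *Nod2*, and the bands, of which the 2 nearest hold few genes, are described without a test. Within 1 Mb, 9 members were tested and none was past 5% FDR by edgeR (2 at an unadjusted p under 0.05, and 1, *Sall1*, past 5% FDR by DESeq2 and by voomWithQualityWeights), with a median absolute log2 fold change of 0.17. From 1 to 2.5 Mb, 6 members were tested with 0 past the threshold by edgeR (2 at an unadjusted p under 0.05, 1 past 5% FDR by DESeq2 and 0 by voomWithQualityWeights) and a median of 0.29, which rests on few genes. From 2.5 to 5 Mb, 0 of 55 were past it by edgeR (10 at an unadjusted p under 0.05, 3 past 5% FDR by DESeq2 and 1 by voomWithQualityWeights) with a median of 0.16. From 5 to 10 Mb, 2 of 49 were past it by edgeR (14 at an unadjusted p under 0.05, 6 past 5% FDR by DESeq2 and 6 by voomWithQualityWeights) with a median of 0.17. Over the 13545 genes tested the matching shares were 1.16% by edgeR, 23.1% at an unadjusted p under 0.05 and 6.22% by voomWithQualityWeights. DESeq2 called 7.26% of its own 15892 genes, and among the 13545 genes it called 560 higher and 528 lower. The shares at an unadjusted p under 0.05 in the 4 bands, from near to far, were 22.2%, 33.3%, 18.2% and 28.6%. The shares with an absolute log2 fold change of 1 or more were 11.1% (*Snx20*, 1 of 9), 0%, 3.64% and 2.04%, against 4.33% of all genes. The 11.1% rests on *Snx20* alone, whose difference is in part built into the count rule and was 0.49 without *Nod2*-/- replicate 4. The 3.64% includes *Lyl1*, to which the count rule applies in the same way. Across the 119 members the rank correlation (Spearman's rho) of the absolute log2 fold change with distance was -0.006, and that of the signed value was 0.03, given as descriptions since neighbouring genes share libraries and are not independent.

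The members lie unevenly around *Nod2*. Toward lower coordinates 83 were tested, with 0 past 5% FDR by edgeR, 18 at an unadjusted p under 0.05, 5 past 5% FDR by DESeq2 and 3 by voomWithQualityWeights. Toward higher coordinates 36 were tested, with 2 past 5% FDR by edgeR, 10 at an unadjusted p under 0.05, 6 past 5% FDR by DESeq2 and 5 by voomWithQualityWeights. At an unadjusted p under 0.05 these were 21.7% and 27.8% of the members on each side, around the background of 23.1%. At 5% FDR the background was 1.16% by edgeR, 6.22% by voomWithQualityWeights and, over its own 15892 genes, 7.26% by DESeq2. The difference between the sides was not tested. Both members past the threshold by edgeR, *Herpud1* and *Cpne2*, lie toward higher coordinates and start 147 kb apart. Over the rest of chromosome 8, outside the window, 3 of 538 protein-coding genes were past 5% FDR (0.558%), with a median absolute log2 fold change of 0.17.

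The gene that starts nearest to *Nod2* is *Cyld*, which encodes a deubiquitinase that restrains NF-κB signalling. It starts 8.6 kb beyond the end of *Nod2* (88697028 to 88751945). WT mice had 402 to 485 normalized counts of *Cyld* (median 447) and *Nod2*-/- mice 377 to 452 (median 412). The groups overlapped, with a log2 fold change of -0.12 (SE 0.07, 95% interval -0.27 to 0.04, edgeR adjusted p = 0.346). On the other side, *Snx20*, a sorting nexin of leukocytes, starts 20.8 kb away by its lower coordinate, and its transcription, on the minus strand, begins nearer to *Nod2*. It had 2.05 to 67.8 normalized counts in WT mice (median 8.82) and 5.69 to 119 in *Nod2*-/- mice (median 34.7). Its highest values were in WT replicate 3 and *Nod2*-/- replicate 4, the groups overlapped, and the fitted log2 fold change of 1.07 had a standard error of 0.74. Leaving out 1 mouse moved it between 0.49, without *Nod2*-/- replicate 4, and 2.17, without WT replicate 3. No test is given, since *Snx20* reached the count minimum in 3 WT and 6 *Nod2*-/- mice and its difference is in part built into the count rule.

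*Sall1* had the smallest adjusted p of the 9 members within 1 Mb. It encodes a zinc finger transcription factor and starts 339 kb from *Nod2*. WT mice had 314 to 552 normalized counts (median 381) and *Nod2*-/- mice 423 to 896 (median 539). Each *Nod2*-/- mouse was above 5 of the 6 WT mice, and WT replicate 3, the highest of its group, overlapped with the *Nod2*-/- mice. The log2 fold change was 0.61 (SE 0.17, edgeR adjusted p = 0.0723), and it was past 5% FDR only without WT replicate 3 among the fits that left out 1 mouse (0.71, edgeR adjusted p = 0.0264, range over the alternatives 0.0225 to 0.165).

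The other 6 members within 1 Mb all lie toward lower coordinates. *Adcy7*, an adenylate cyclase prominent in leukocytes, had 19.7 to 57.8 normalized counts in WT mice (median 37.8) and 41.0 to 112 in *Nod2*-/- mice (median 49.6), with a log2 fold change of 0.60 (SE 0.29, edgeR adjusted p = 0.228). The highest value was that of *Nod2*-/- replicate 7, without which the log2 fold change was 0.38. *Brd7*, a bromodomain subunit of a chromatin remodelling complex, had 559 to 656 (median 612) in WT and 452 to 599 (median 545) in *Nod2*-/- mice, with a log2 fold change of -0.17 (SE 0.08, edgeR adjusted p = 0.197). Both pairs of groups overlapped. *Heatr3* (log2 fold change -0.19), the poly(A) polymerase *Tent4b* (-0.06), the Wnt pathway inhibitor *Nkd1* (0.10) and the phosphatase subunit *Cnep1r1* (0.04) had adjusted p-values between 0.222 and 0.761 by edgeR, and their groups overlapped as well. The 95% interval of *Tent4b* ran from -0.22 to 0.09 and that of *Cnep1r1* from -0.12 to 0.20.

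The neighbour that was higher in *Nod2*-/- mice at 5% FDR, *Cpne2*, encodes a copine, a protein that binds membranes in the presence of calcium. It lies 5.84 Mb from *Nod2* (94532990 to 94570531). WT mice had 43.9 to 99.4 normalized counts (median 56.5) and *Nod2*-/- mice 102 to 192 (median 133). All 7 *Nod2*-/- mice were above all 6 WT mice, by a narrow margin at WT replicate 3. The log2 fold change was 1.07 (SE 0.23, 95% interval 0.58 to 1.56, edgeR adjusted p = 0.0422). The two-sided exact permutation test gave p = 0.000583, unadjusted, the smallest these groups allow. This value follows from groups that do not overlap, a rule by which *Cpne2* was named. When 1 mouse was left out the log2 fold change stayed between 0.97 and 1.22 and the adjusted p by edgeR ranged from 0.0143 to 0.108, above the threshold without WT replicate 1 (0.0986), 2 (0.108), 4 (0.0866) or 5 (0.0935) and without *Nod2*-/- replicate 4 (0.0867), 6 (0.0584) or 7 (0.0814).

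The highest *Cpne2* values of each genotype were in WT replicate 3 and *Nod2*-/- replicate 4. The summed normalized counts of 5 markers of cholangiocytes and hepatic progenitor cells, of which *Spp1* contributed most, were also highest there, at 3576 and 6658. They ran from 591 to 3576 in WT mice (median 1281) and from 1777 to 6658 in *Nod2*-/- mice (median 3697). WT replicate 3 was also the highest WT mouse for summed markers of Kupffer cells and macrophages, T and NK cells, sinusoidal endothelial cells and stellate cells. *Nod2*-/- replicate 4 was also the highest of its group for those of hepatocytes and of B and plasma cells. None of these other lists was highest in both mice. All 5 cholangiocyte and progenitor markers were tested, 3 had a log2 fold change above 0 and 2 below (median 0.24), and 1 was past 5% FDR, in the higher direction. Their part in the *Cpne2* difference was not tested, and in liver tissue a change in the number of cells of a type and a change in RNA per cell cannot be told apart.

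The neighbour that was lower in *Nod2*-/- mice at 5% FDR, *Herpud1*, encodes a membrane protein of the endoplasmic reticulum that is induced by the unfolded protein response and takes part in the degradation of misfolded proteins. It lies 5.70 Mb from *Nod2* (94386438 to 94395377). WT mice had 7056 to 10630 normalized counts (median 8027) and *Nod2*-/- mice 5046 to 7395 (median 5673). Of the *Nod2*-/- mice, 6 were below every WT mouse, and replicate 5, at 7395, lay within the WT range. The log2 fold change was -0.55 (SE 0.12, 95% interval -0.81 to -0.28, edgeR adjusted p = 0.0490). The two-sided exact permutation test gave p = 0.00233, unadjusted, from the same mice in which passing 5% FDR had named *Herpud1*. With 1 mouse left out the log2 fold change stayed between -0.61 and -0.47, and the adjusted p by edgeR ranged from 0.0191 to 0.131. It was below 0.05 in 3 of the 13 such fits, those without WT replicate 3 (0.0191), WT replicate 6 (0.0478) or *Nod2*-/- replicate 5 (0.0323), and above it without any 1 of the other 10 mice. With no filter on low counts it was also above the threshold (edgeR adjusted p = 0.0620, range over the alternatives 0.00118 to 0.139).

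The other members with a role in the endoplasmic reticulum or in protein folding did not pass the test. Of 11 tested members of this list, 1 was past 5% FDR (*Herpud1*, background 1.16%), 4 were at an unadjusted p under 0.05 (2 higher and 2 lower, background 12.9% and 10.2%), and the median log2 fold change was -0.07. *Calr*, a calcium-binding chaperone of the endoplasmic reticulum, had 10750 to 15310 normalized counts in WT mice (median 12320) and 7735 to 13820 in *Nod2*-/- mice (median 11840). The groups overlapped, with a log2 fold change of -0.14 (SE 0.13, edgeR adjusted p = 0.545). Leaving out 1 mouse moved it between -0.20, without *Nod2*-/- replicate 1, and -0.06, without *Nod2*-/- replicate 7. The other members at an unadjusted p under 0.05 were *Asna1*, which delivers tail-anchored proteins to the membrane (-0.18), and, less closely tied to the name of the list, the lysosomal nuclease *Dnase2a* (0.21) and the microtubule adaptor *Hook2* (0.27), with adjusted p-values of 0.192 to 0.216 by edgeR. *Dnase2a* overlaps *Mast1*.

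Promoters of *Herpud1* and *Calr* carry response elements known from the unfolded protein response, and they are shown because 1 of these genes differed and the other did not pass the test. RefSeq promoters (GRCm38.p6, from 250 bases before to 50 after the transcription start) were found for 94 of the 120 members, 118 promoters in all. The letters ATTGGNCCACG (ERSE-II) and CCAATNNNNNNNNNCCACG (ERSE) were searched on both strands. The ERSE-II letters were in 12 of 32851 promoters (0.0365%) and, among members, in that of *Herpud1* only. The ERSE letters were in 39 of 32851 promoters (0.119%) and, among members, in that of *Calr* only. Both contain the CCAAT box or its complement, which 37.4% of all promoters hold. In the *Herpud1* promoter (chr8:94386179-94386478, + strand) the match, in capitals, lies 52 to 42 bases before the start. In the *Calr* promoter (chr8:84846882-84847181, - strand) the match is on the opposite strand, so that the capitals show its reverse complement, 162 to 144 bases before the start.
*Herpud1*: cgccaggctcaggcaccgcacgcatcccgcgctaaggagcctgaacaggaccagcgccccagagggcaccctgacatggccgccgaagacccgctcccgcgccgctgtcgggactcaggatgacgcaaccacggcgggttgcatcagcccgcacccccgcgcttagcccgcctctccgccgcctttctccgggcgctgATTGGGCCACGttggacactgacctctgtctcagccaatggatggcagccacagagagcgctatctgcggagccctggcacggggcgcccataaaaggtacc
*Calr*: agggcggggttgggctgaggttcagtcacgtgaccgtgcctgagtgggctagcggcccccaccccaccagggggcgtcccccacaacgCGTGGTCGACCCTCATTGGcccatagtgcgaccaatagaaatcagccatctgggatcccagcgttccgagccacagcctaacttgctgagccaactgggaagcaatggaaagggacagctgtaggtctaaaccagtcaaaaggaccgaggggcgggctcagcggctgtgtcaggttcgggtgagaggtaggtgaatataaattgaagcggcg
A match of letters is a description of the sequence, and binding was not measured here.

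*Usp38* and *Orc6* were the other members whose groups did not overlap. *Usp38* encodes a deubiquitinase and lies 7.67 Mb from *Nod2* (80980733 to 81014928). WT mice had 672 to 1030 normalized counts (median 859) and *Nod2*-/- mice 371 to 656 (median 618). All 7 *Nod2*-/- mice were below all 6 WT mice, with *Nod2*-/- replicate 4 the lowest. In the fit the log2 fold change was -0.57 (SE 0.13, edgeR adjusted p = 0.0512), just above the threshold. The two-sided exact permutation test gave p = 0.000583, unadjusted, which follows from groups that do not overlap, the rule by which *Usp38* was named. It was past 5% FDR without WT replicate 3 (edgeR adjusted p = 0.0178), *Nod2*-/- replicate 3 (0.0472) or *Nod2*-/- replicate 5 (0.0495), and over all alternatives its adjusted p ranged from 0.00352 to 0.144.

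*Orc6* encodes a subunit of the origin recognition complex, which marks where DNA replication starts, and lies 3.35 Mb from *Nod2* (85299632 to 85308278). WT mice had 47.0 to 71.3 normalized counts (median 62.5) and *Nod2*-/- mice 72.9 to 102 (median 77.4). All 7 *Nod2*-/- mice were above all 6 WT mice, and the nearest values of the 2 groups almost touched. The unadjusted p of 0.000583 by the two-sided exact permutation test again follows from groups that do not overlap, the rule by which the gene was named. With a log2 fold change of 0.44 (SE 0.14, edgeR adjusted p = 0.0929), *Orc6* missed the threshold. Its first bases overlap those of *Vps35*, which runs the other way on the opposite strand, and since the sources used here do not state whether counting used strand, reads in the overlap could belong to either gene. *Vps35* itself, a retromer subunit, had a log2 fold change of -0.24 (SE 0.12, edgeR adjusted p = 0.232).

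**Figure D2:**
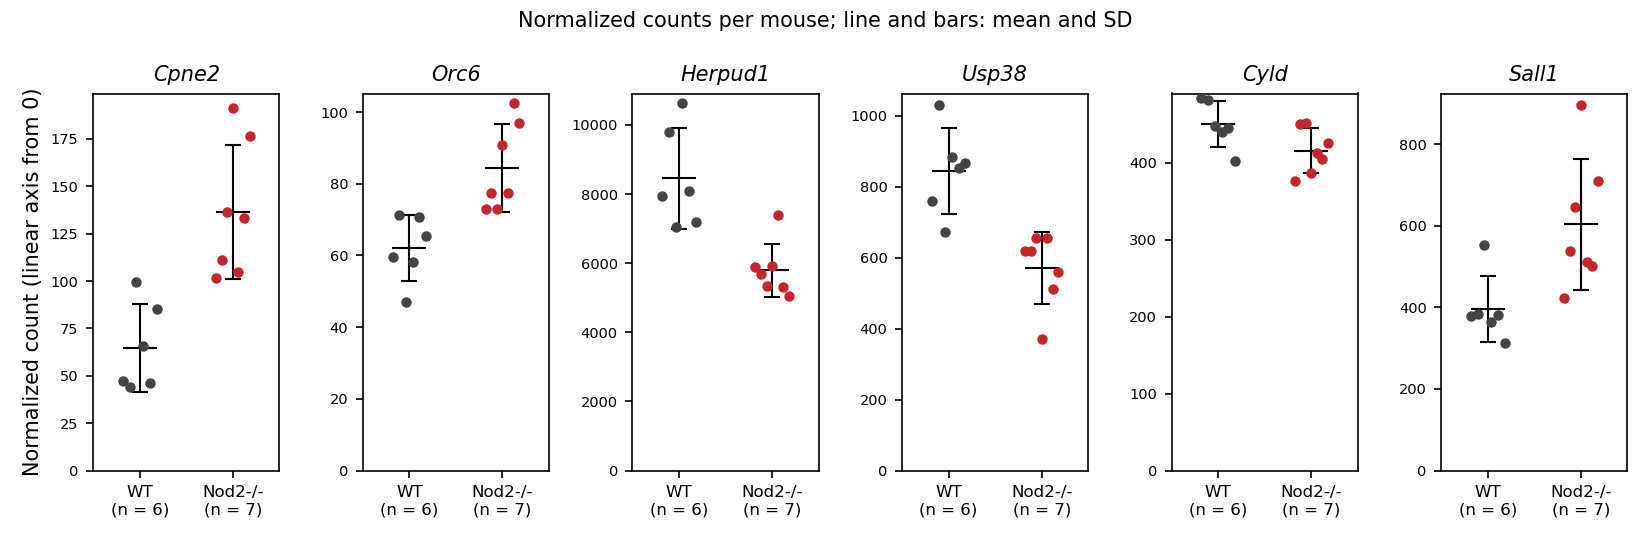
Normalized counts (linear axes from 0) of 6 members in each WT (n = 6, grey) and *Nod2*-/- (n = 7, red) mouse, with the mean and SD as lines and bars. The groups are apart for *Cpne2*, *Orc6* and *Usp38*, and they overlap at *Nod2*-/- replicate 5 (7395) for *Herpud1*, at WT replicate 3 (552) for *Sall1* and over most of the range for *Cyld*, the gene nearest to *Nod2*.

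The remaining members are given by role, from lists written from general knowledge. Members in these lists that were at an unadjusted p under 0.05 but outside the rule for named genes were chosen after their values were seen. Members with roles in immune signalling or NF-κB control had 0 of 10 past 5% FDR by edgeR (background 1.16%), 3 higher and 0 lower at an unadjusted p under 0.05 (background 12.9% and 10.2%), and 1 past 5% FDR by DESeq2 (*Il15*, background 7.26%) and 1 by voomWithQualityWeights (*Adgrg3*, background 6.22%). Of the 10, 8 had a log2 fold change above 0 (7088 of 13545 over all genes tested), and the median was 0.43 (0.02 over all genes tested). The 8 include *Il15* and *Snx20*, whose differences are in part built into the count rule. The tally and the median are therefore in part built in as well and were not tested. *Il15*, a cytokine that sustains natural killer and memory T cells, had 6.58 to 20.8 normalized counts in WT mice (median 15.97) and 19.8 to 46.1 in *Nod2*-/- mice (median 26.2). Of the *Nod2*-/- mice, 6 were above every WT mouse, and the log2 fold change was 0.88 (SE 0.26). It reached the count minimum in 5 WT and 7 *Nod2*-/- mice, so its difference is in part built into the count rule, which also limits its place among the genes counted above at an unadjusted p under 0.05 and by DESeq2. *Adgrg3*, an adhesion receptor of granulocytes, had a log2 fold change of 0.65 (SE 0.24, edgeR adjusted p = 0.131) and was past 5% FDR without WT replicate 3 (edgeR adjusted p = 0.0281, range over the alternatives 0.0281 to 0.264). The third member at an unadjusted p under 0.05 was the docking protein *Dok4* (0.49, edgeR adjusted p = 0.179), which overlaps *Polr2c*.

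Several other immune members varied between mice more than most members did. The adhesion receptor *Adgrg1* had 18.6 to 148 normalized counts in WT mice (median 27.9) and 27.3 to 291 in *Nod2*-/- mice (median 76.3), highest in WT replicate 3 and *Nod2*-/- replicate 4, and the groups overlapped (log2 fold change 0.96, SE 0.57, edgeR adjusted p = 0.325). Without WT replicate 3 its log2 fold change was 1.64, and without *Nod2*-/- replicate 4 it was 0.41. The leukocyte receptor *Adgre5*, which overlaps *Ddx39*, had a log2 fold change of 0.38 (SE 0.27), and *Nlrc5*, the regulator of MHC class I genes, one of 0.22 (SE 0.19), with adjusted p-values of 0.401 and 0.500 by edgeR. *Adgre5* had 0.17 without *Nod2*-/- replicate 7, and *Nlrc5* had 0.37 without WT replicate 3 and 0.11 without WT replicate 5. *Adgrg1* and *Snx20* were the 2 members whose within-group SD exceeded 1 on the log2 scale, against a median of 0.24 for members and 0.28 for all genes tested.

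Summed markers of several blood and immune cell types also had higher medians in *Nod2*-/- mice. The summed normalized counts of 11 neutrophil markers ran from 69.1 to 160 in WT mice (median 107) and from 101 to 16670 in *Nod2*-/- mice (median 356), with the highest value in replicate 7 and *S100a9* contributing most. Of the 4 neutrophil markers tested, 4 were higher at an unadjusted p under 0.05 and 0 were past 5% FDR by edgeR. The summed counts of 9 erythroid markers, led by *Hbb-bs*, were 5083 to 8682 in WT (median 6275) and 6242 to 19270 in *Nod2*-/- mice (median 9459), again highest in replicate 7. Those of 8 markers of Kupffer cells and macrophages, led by *Clec4f*, were 1907 to 3540 (median 2249) and 2382 to 7119 (median 3181), the latter also highest in replicate 7. *Il15* and *Lyl1* had their highest values in the same *Nod2*-/- mouse. The part of these cells in the immune members' values was not tested.

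Members listed under mitochondrial and intermediary metabolism had 9 log2 fold changes below 0 and 6 above, where all genes tested had 6457 and 7088. They include *Fto* (-0.15) and *Setd6* (0.125), which are less closely tied to the name of the list. None of 15 was past 5% FDR by edgeR, 1 was higher and 6 lower at an unadjusted p under 0.05 (background 12.9% and 10.2%), 3 were lower at 5% FDR by DESeq2 (background 7.26%) and 1 by voomWithQualityWeights (background 6.22%), and the median log2 fold change was -0.17. *Gcdh*, the mitochondrial glutaryl-CoA dehydrogenase of lysine and tryptophan breakdown, had 7349 to 13450 normalized counts in WT mice (median 10430) and 4553 to 7926 in *Nod2*-/- mice (median 6619). Of the *Nod2*-/- mice, 4 were below every WT mouse, and the lowest value of each group was in WT replicate 3 and *Nod2*-/- replicate 4. The log2 fold change was -0.66 (SE 0.17, edgeR adjusted p = 0.0644), and without WT replicate 3 it was past 5% FDR (edgeR adjusted p = 0.0211, range over the alternatives 0.00616 to 0.160). *Gcdh* overlaps *Syce2*.

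*Got2*, the mitochondrial aspartate aminotransferase, had 6305 to 9005 normalized counts in WT mice (median 7767) and 4977 to 6770 in *Nod2*-/- mice (median 6171). The groups overlapped at 2 WT mice, replicates 3 and 6, and the log2 fold change was -0.36 (SE 0.12, edgeR adjusted p = 0.101). *Coq9*, needed for ubiquinone synthesis, had a log2 fold change of -0.34 (SE 0.11, edgeR adjusted p = 0.0994) and overlaps *Ciapin1*. *Mmaa*, which serves the cobalamin-dependent mutase of propionate breakdown, had one of -0.42 (SE 0.15, edgeR adjusted p = 0.122). *Got2*, *Coq9* and *Mmaa* were past 5% FDR without WT replicate 3, with adjusted p-values by edgeR of 0.0412, 0.0339 and 0.0459 (ranges over the alternatives 0.0290 to 0.261, 0.0339 to 0.225 and 0.0459 to 0.256). The peroxisomal protease *Lonp2* (-0.40) and the phosphorylase kinase subunit *Phkb* (-0.35) had adjusted p-values of 0.203 and 0.181 by edgeR. *Tecr*, a reductase of very long chain fatty acid elongation, was the member in the higher direction at an unadjusted p under 0.05, with 0.37 (SE 0.13, edgeR adjusted p = 0.116), while *Gpt2*, the mitochondrial alanine aminotransferase, had -0.18 (SE 0.11, edgeR adjusted p = 0.326). The hepatocyte markers, which could move with these genes, summed to 1480000 to 2048000 normalized counts in WT mice (median 1963000) and 1531000 to 2977000 in *Nod2*-/- mice (median 1938000), with *Alb* contributing most. Taken singly, 4 of the 9 had a log2 fold change above 0, the median was -0.26, and 1 was higher and 2 lower at an unadjusted p under 0.05. Their part in the metabolic members' values was not tested.

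Transcription factors and chromatin proteins were the list with the most members, 20, of which 19 were tested. None was past 5% FDR by edgeR (background 1.16%), and 4 were higher and 2 lower at an unadjusted p under 0.05 (background 12.9% and 10.2%). By DESeq2 3 were past 5% FDR (*Junb*, *Sall1* and *Rbl2*, background 7.26%), by voomWithQualityWeights 1 was (*Sall1*, background 6.22%), and the median log2 fold change was 0.07. *Junb*, an immediate early subunit of AP-1, had 149 to 391 normalized counts in WT mice (median 266) and 269 to 1252 in *Nod2*-/- mice (median 539). Of the *Nod2*-/- mice, 4 were above every WT mouse, and the highest was replicate 4. *Junb* had a log2 fold change of 1.17 (SE 0.34, edgeR adjusted p = 0.0807), past 5% FDR without WT replicate 3 (edgeR adjusted p = 0.0485, range over the alternatives 0.0162 to 0.214). It overlaps *Prdx2*.

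*Lyl1*, a transcription factor of blood cell precursors, had a log2 fold change of 1.03 (SE 0.45), and its 61.7 normalized counts in *Nod2*-/- replicate 7 compare with 8.46 to 24.9 in the other *Nod2*-/- mice and 5.13 to 16.4 in the WT group. Without *Nod2*-/- replicate 7 the log2 fold change was 0.51. It reached the count minimum in 3 WT and 6 *Nod2*-/- mice, so its difference, and its place in the counts of its list, are in part built into the count rule. *Lyl1* lies within *Nfix*, which had -0.21 (SE 0.13, edgeR adjusted p = 0.360). The pocket protein *Rbl2*, which represses cell cycle genes with E2F factors, had 677 to 875 normalized counts in WT mice (median 748) and 417 to 701 in *Nod2*-/- mice (median 586). The groups overlapped at 2 *Nod2*-/- mice, with a log2 fold change of -0.36 (SE 0.11, edgeR adjusted p = 0.0959), and *Rbl2* overlaps *Aktip*. *Asf1b*, a histone chaperone of dividing cells, was the member that edgeR's filter left out, with 3.29 to 9.83 normalized counts in WT and 8.22 to 24.5 in *Nod2*-/- mice. It reached the count minimum in 2 WT and 5 *Nod2*-/- mice, so its difference is in part built into the count rule and no test is given. *Cnot1*, the scaffold of the CCR4-NOT deadenylase, had -0.17 (SE 0.12, edgeR adjusted p = 0.409). With 1 mouse left out it ranged from -0.24, without *Nod2*-/- replicate 2, to -0.08, without WT replicate 3.

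Signalling members had 1 of 16 past 5% FDR by edgeR (*Cpne2*, background 1.16%), 3 higher and 1 lower at an unadjusted p under 0.05 (background 12.9% and 10.2%), and a median log2 fold change of 0.10. By DESeq2 1 was past 5% FDR (*Cpne2*, background 7.26%), and by voomWithQualityWeights 2 were (*Cpne2* and *Smad1*, background 6.22%). *Smad1*, which carries bone morphogenetic protein signals, had 175 to 269 normalized counts in WT mice (median 201) and 240 to 298 in *Nod2*-/- mice (median 275). Of the *Nod2*-/- mice, 4 were above every WT mouse, with a log2 fold change of 0.31 (SE 0.11, edgeR adjusted p = 0.128, voomWithQualityWeights adjusted p = 0.0479, range over the alternatives 0.0479 to 0.264). The phosphoinositide phosphatase *Inpp4b* had 5.73 to 21.7 normalized counts in WT and 12.5 to 24.9 in *Nod2*-/- mice, and its highest WT value was in replicate 3 (log2 fold change 0.76, SE 0.31). It reached the count minimum in 3 WT and 7 *Nod2*-/- mice, so its difference, and its place in the counts of this list, are in part built into the count rule and no test is given. *Rspry1*, which overlaps *Fam192a*, had -0.19 (edgeR adjusted p = 0.204). The kinase subunit *Prkaca*, the catalytic part of protein kinase A, had 0.10 (SE 0.07, 95% interval -0.05 to 0.25), and the integrin alpha FG-GAP protein *Itfg1* had -0.13 (SE 0.08).

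The ubiquitin system had 0 of 11 members past 5% FDR by edgeR (background 1.16%), 1 higher and 1 lower at an unadjusted p under 0.05 (background 12.9% and 10.2%), 2 past 5% FDR by DESeq2 (*Usp38* and *Dcaf15*, background 7.26%) and 1 by voomWithQualityWeights (*Usp38*, background 6.22%), and a median log2 fold change of -0.03. *Dcaf15*, a substrate receptor of a cullin ubiquitin ligase, had 54.1 to 92.3 normalized counts in WT mice (median 75.7) and 76.3 to 148 in *Nod2*-/- mice (median 115). Of the *Nod2*-/- mice, 6 were above every WT mouse, with a log2 fold change of 0.58 (SE 0.16, edgeR adjusted p = 0.0723). The deubiquitinase *Otud4* had -0.09 (SE 0.11).

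Of the members that process RNA or serve translation, 0 of 12 were at an unadjusted p under 0.05 (background 23.1%) or past 5% FDR by edgeR, DESeq2 or voomWithQualityWeights, and their log2 fold changes ran from -0.18 (*Abce1*, a ribosome recycling factor, SE 0.09) to 0.23 (the RNA helicase *Ddx39*). Members of vesicle traffic, cilium and cytoskeleton had 0 of 15 past 5% FDR by edgeR and by DESeq2, 1 at an unadjusted p under 0.05 (background 23.1%) and 1 past 5% FDR by voomWithQualityWeights (background 6.22%). The nuclear import receptor *Tnpo2* had 0.09 (SE 0.08). Of 13 members in no list, 0 were past 5% FDR by any of the 3 tools and 1 was at an unadjusted p under 0.05, the cytokine receptor *Il27ra*, which overlaps *Palm3* (0.49, SE 0.16, edgeR adjusted p = 0.106). It was past 5% FDR without WT replicate 3 (edgeR adjusted p = 0.0485, range over the alternatives 0.0485 to 0.253). In all, 36 of the 120 members overlap another protein-coding gene.

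Libraries of the same genotype differed from each other. The SD of the members' deviations from the mean over all mice was largest in *Nod2*-/- replicate 4 (0.52 on the log2 scale). WT replicate 2 (0.46) and *Nod2*-/- replicate 7 (0.44) followed, and *Nod2*-/- replicate 5 had the smallest (0.25). That mean was not taken within genotype, so these SDs include any difference between the genotypes. Lung epithelium markers, led by *Sftpc*, summed to 224 to 3073 normalized counts in the WT and 40.2 to 490 in the *Nod2*-/- group, with 4 of 4 tested markers lower at an unadjusted p under 0.05 and 0 past 5% FDR by edgeR. Adipocyte markers, led by *Fabp4*, summed to 102 to 341 and 234 to 840. Stellate cell markers were 3342 to 6333 and 3541 to 4802, those of sinusoidal endothelial cells 2528 to 3567 and 2774 to 3607, those of B and plasma cells 191 to 313 and 186 to 377, and those of T and NK cells 61.4 to 97.6 and 44.4 to 184. Each of the 5 pancreas acinar markers had at most 3 counts in each library. The part of these cells in the members' differences was not tested.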

How the data were processed

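Liver RNA of 6 WT and 7 *Nod2*-/- mice was sequenced, each mouse giving a separate library. The authors removed adapters and low-quality bases with Trimmomatic 0.33, aligned the reads to GRCm38 by TopHat2 2.1.1 and deposited raw counts for genes of GENCODE release 16. The counting program and its use of strand are not given in the sources used here. Of the deposited entries 1 had no gene identifier and no counts and was left out. Positions are from GENCODE release 21, in which 53360 of 53465 genes were found. Libraries of a genotype differed by more than sampling noise in each of 36 pairs (chi-square divided by its degrees of freedom, 11.6 to 177).

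The 13545 genes kept by filterByExpr held 99.9% of counts. They were fitted in R 4.3.3 by edgeR 4.0.16 (TMM, glmQLFit, glmQLFTest, two-sided, no covariate). Standard errors and 95% intervals were derived from the quasi-likelihood F statistic. Exact permutation tests used log2 of normalized counts plus 1 over all 1716 splits of the 13 mice.

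The members and lists were chosen with earlier results of these data known. Genes were named when past 5% FDR, within 1.5 Mb of *Nod2*, not overlapping between groups, among the 2 highest mean counts of a role list or the 3 highest of all, or nearest the count minimum. These were 28 genes, and 24 others were chosen after their values were seen. A few of them are not reported here. There were 8 role lists and 12 marker lists. Alternatives were DESeq2 1.42.0, voomWithQualityWeights of limma 3.58.1, RLE normalization, 3 other filters on low counts, the replicate number as a block, the window by transcription start, and leaving out each mouse. Leaving out WT replicate 3 with *Nod2*-/- replicate 7 was added after seeing the data. The fits were checked on simulated counts in which 200 genes differed.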

Additional observations from a re-analysis of the deposited data

Results flagged for a closer look

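Among 104 groups of mice, each 1 genotype for 1 named gene, 11 had a mouse far from the others, by Dixon's ratio of the gap to the range (10.6%). Chance flags about 1 in 20 groups, and genes measured in the same libraries are not independent. WT replicate 3 was such a mouse for 5 genes, with 67.8 normalized counts of *Snx20* (next 18.8), 552.2 of *Sall1* (next 383.8), 1866 of *Cnot1* (next 1408), 21.7 of *Inpp4b* (next 11.1) and 148.2 of *Adgrg1* (next 61.4). *Nod2*-/- replicate 4 was such a mouse for 3 genes, with 118.7 of *Snx20* (next 46.5), 26.9 of *Gnao1* (next 10.8) and 291.2 of *Adgrg1* (next 116.3). *Nod2*-/- replicate 7 was such a mouse for 2 genes, with 46.1 of *Il15* (next 30.7) and 61.7 of *Lyl1* (next 24.9). *Nod2*-/- replicate 5 had 7395 of *Herpud1* (next 5905).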

How the results depend on the processing

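At 5% FDR, 1 higher and 1 lower member became 5 and 6 with DESeq2 and 5 and 3 with voomWithQualityWeights. There were 1 and 2 with RLE normalization (1.14% of all genes), and 3 and 3 without both WT replicate 3 and *Nod2*-/- replicate 7. The other filters on low counts and the window by transcription start gave 1 and 1, and that window held the same 120 genes. With no filter the lower member was *Usp38* (edgeR adjusted p = 0.0478) in place of *Herpud1* (0.0620). With 1 mouse left out the count ranged from 0 to 6 higher and from 0 to 6 lower members, and the median log2 fold change of members from 0.026 to 0.089, lowest without *Nod2*-/- replicate 6. With the replicate number as a block, 0 members were higher and 0 lower by edgeR, with 25 at an unadjusted p under 0.05 (18.4% of all genes) and 35 of all genes past the threshold (0.258%). *Cpne2* had 1.03 and *Herpud1* -0.51 in that fit. Numbers do not pair these mice: deviations of same-numbered mice correlated at 0.041, -0.151, -0.086, -0.302, -0.039 and 0.304, and no mouse correlated best with its own number. Of 1041 values of named genes under an alternative, 982 kept their direction and side of the threshold, 20 fell below it, 33 passed it and 6 changed sign. *Nkd1* had -0.006 without both mice. *Gm10643*, at -0.01 with all mice, was tested in 9 of the fits that omitted 1 mouse, ranging from -0.094 to 0.15, with -0.37 by voomWithQualityWeights. It was above 0 in 5 of these 9 (0.062, 0.141, 0.15, 0.019 and 0.091). The cause of these changes was not tested. Standard errors of the members ran from 0.07 to 0.74 (median 0.13).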
